A study of Mus musculus with 6 samples.

Results

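To determine whether the machinery by which microglia recognise and engulf dying cells differed when PGC-1α was overexpressed, 10 genes were followed on arrays of isolated mouse microglia. They were the receptor tyrosine kinases Axl, Mertk and Tyro3, the secreted bridging proteins Gas6, Pros1 and Mfge8, the integrin subunit Itgav, and the engulfment signalling genes Elmo1, Dock2 and Rac2. Their probes were found by matching the transcript accession of each non-control probe to these symbols, which gave 16 probes for the 10 genes, out of 23462 genes with a named probe. This rule uses no measured value. Both groups were C57BL/6 mice, labelled male and aged 10 weeks (n = 3 arrays each), and both carried the PGC-1αf/f allele, a loxP-controlled PGC-1α transgene with an eGFP tag. PGC-1αf/f mice were littermates without Cre. mPGC-1α mice carried in addition a tamoxifen-inducible Cre recombinase knocked into the Cx3cr1 locus, so Cre can act in any cell that uses this locus. Tamoxifen came first and an interval of weeks followed before experiments. The paper describes tamoxifen for both genotypes in its morphology and stroke experiments. The sources used here do not say whether the control mice of the arrays were also dosed. Cells were pulled from brain on magnetic beads through P2RY12, a microglial purinergic receptor.

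Apoptotic cells expose phosphatidylserine on their surface. Gas6 and protein S, the product of Pros1, bind this lipid and bridge it to the TAM receptors, so called after Tyro3, Axl and Mertk, while Mfge8 bridges it to integrins that contain the αv subunit encoded by Itgav. Downstream, ELMO1 and a DOCK protein form an exchange factor that loads Rac GTPases with GTP, and Rac drives the actin cup that closes around the corpse. In the brain, Mertk is the TAM receptor long associated with resting microglia, and Axl is known to be induced in reactive microglia.

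All values are the log2 signal of a probe minus the 75th percentile of its array, so a value of 0 marks a probe at that percentile, and a difference of 1 is a doubling. Signals of different probes are not on a common scale and were not set against each other. The targeted gene, Ppargc1a, was 0.80 higher in mPGC-1α microglia with its brighter probe, with a limma adjusted p of 0.306 and groups that overlapped. All 10 microglial markers, Tmem119 and P2ry12 among them, were well above background on all 6 arrays. An array stood apart in each group. PGC-1αf/f replicate 3 correlated less with the others (mean r over probes 0.928, against 0.962 to 0.972 for the rest). mPGC-1α replicate 3, labelled male, had 0 of 4 Y-linked genes above background, whereas the other arrays had 4 of 4. The PGC-1αf/f arrays lay in row 1 of the slide and the mPGC-1α arrays in row 2, so slide row and group cannot be told apart. RNA came from the isolated cells in bulk, in which fewer cells of a type and less RNA per cell cannot be told apart.

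Of the 16 member probes, 13 were well above background on all arrays of a group and were tested. At least 1 probe with a value on every array was available for 8 of the 10 genes, all but Mertk and Itgav, whose only probes had outlier spots. None of the 8 passed an adjusted p of 0.05 (limma, Benjamini-Hochberg over all tested probes), and the smallest adjusted p among them was 0.191. Of all 12302 genes measured in this way, 0.065% passed. At an unadjusted p under 0.05, Axl, Tyro3 and Rac2 were higher in mPGC-1α microglia, 3 of 8 or 37.5%, where 8.16% of all genes were. Elmo1 alone was lower, 1 of 8 or 12.5%, where 5.71% of all genes were. Under scaling by the median of each array in place of the 75th percentile, 1 member was higher (Axl) and 1 lower (Elmo1). Of all 25257 tested probes, 1117 were then higher and 3943 lower. With quantile normalization 2 members were higher (Axl and Tyro3) and 1 lower (Elmo1), beside 1672 and 2667 probes. On the series table without normalization 0 members were called either way, beside 1247 and 513 probes. There all 8 members had the same standard error, 0.4281, so this count does not rest on the spread of each gene. The differences there were 0.70 for Axl, 0.36 for Tyro3, 0.40 for Rac2 and -0.55 for Elmo1. The groups did not overlap for 2 of the 8, Axl and Tyro3, both higher (12.2% of all genes), and for 0 in the lower direction (10.8% of all genes). With counts this small and a background of several percent, no statement about the group of 8 genes was drawn. Its median log2 difference was 0.18, beside 0.03 over all genes.

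**Figure D1:**
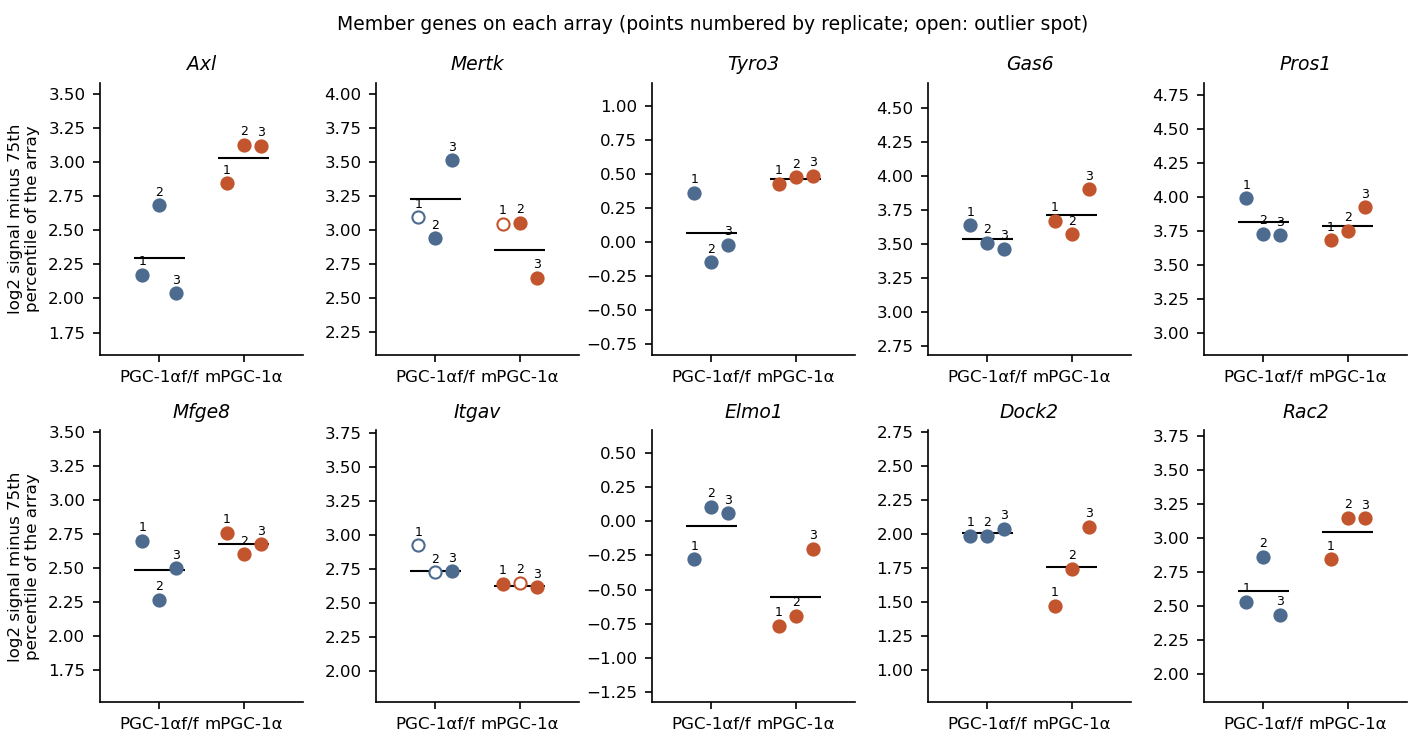
Level of each of the 10 genes on each array, as log2 signal minus the 75th percentile of the array, with 1 probe shown per gene and points numbered by replicate. Blue points are PGC-1αf/f arrays and orange points mPGC-1α arrays, black lines are group means without outlier spots, and open points are outlier spots. Every panel spans the same range of log2 units. The groups separate for Axl and Tyro3, and overlap among filled points for Gas6, Pros1, Mfge8, Elmo1, Dock2 and Rac2.

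Among the TAM receptors, Axl, which responds to Gas6 alone among the bridging ligands, differed most. Its probe A_66_P119852 gave 2.18, 2.68 and 2.04 across PGC-1αf/f replicates, against 2.85, 3.13 and 3.12 across mPGC-1α replicates. Every mPGC-1α array was above every PGC-1αf/f array. The means were 2.30 ± 0.34 (SD, n = 3) and 3.03 ± 0.16 (SD, n = 3), a difference of 0.73 (95% interval 0.26 to 1.21) or 1.66-fold, with an unadjusted p of 0.00836 and an adjusted p of 0.191 (limma). Within slide columns 1 and 2, each of which held an array of both groups, the difference was 0.67 and 0.44. The other Axl probe, A_65_P08024, did not stand clear of background on any array and was not tested. Axl kept its direction under each of the 19 alternative settings, from 0.53 to 0.93, and its unadjusted p stayed under 0.05 in 17 of them, including all 6 that left out 1 array. Without PGC-1αf/f replicate 3, its lowest array, the difference was 0.60, and without mPGC-1α replicate 3 it was 0.69. With both left out it was 0.56, and the unadjusted p was then 0.0528.

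Tyro3, the TAM receptor best known from neurons, showed a smaller difference in the same direction. Its probe A_55_P2038247 gave 0.36, -0.15 and -0.02 across PGC-1αf/f replicates, against 0.43, 0.47 and 0.48 across mPGC-1α replicates. The mPGC-1α arrays lay close together, and the lowest of them was only just above the highest PGC-1αf/f array. The difference was 0.40 (95% interval 0.01 to 0.79) or 1.32-fold, with an adjusted p of 0.292 by limma. It was 0.07 within slide column 1 and 0.62 within column 2. Its unadjusted p of 0.0451 stayed under 0.05 in 9 of 19 alternatives and in 1 of the 6 that left out an array. Over the alternatives the difference ranged from 0.26 with the median shift to 0.55 without PGC-1αf/f replicate 1. It was 0.29 without PGC-1αf/f replicate 2. It was 0.36 with PGC-1αf/f replicate 3 left out (unadjusted p of 0.0963) and 0.39 with mPGC-1α replicate 3 left out (unadjusted p of 0.0933). The neuronal markers had a summed level of 12.5 to 16.3 times the 75th percentile on the PGC-1αf/f arrays and 14.7 to 16.5 on the mPGC-1α arrays, with 6 of 8 well above background on all arrays and 0 past an unadjusted p of 0.05. Their part in the Tyro3 values was not tested. A second Tyro3 probe, A_52_P411629, did not stand clear of background on any array.

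Mertk, the receptor that binds both Gas6 and protein S and is linked to corpse uptake by resting microglia, had 2 arrays with outlier spots. Its probe A_51_P366138 gave 2.94 and 3.51 on PGC-1αf/f replicates 2 and 3, and 3.05 and 2.65 on mPGC-1α replicates 2 and 3. The mPGC-1α replicate 2 lay above PGC-1αf/f replicate 2, so the groups overlapped. With n = 2 in each group, the limma difference was -0.38 (95% interval -1.10 to 0.34), with an adjusted p of 0.523. With the outlier spots kept, 3.09 for PGC-1αf/f replicate 1 and 3.04 for mPGC-1α replicate 1 were added and the difference was -0.27 (95% interval -0.74 to 0.21). The negative value rested on the pair of arrays that stood apart. With both left out it was 0.11, between 1 array of each group. The opposite signs of Axl and Mertk were not tested as a difference.

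**Figure D2:**
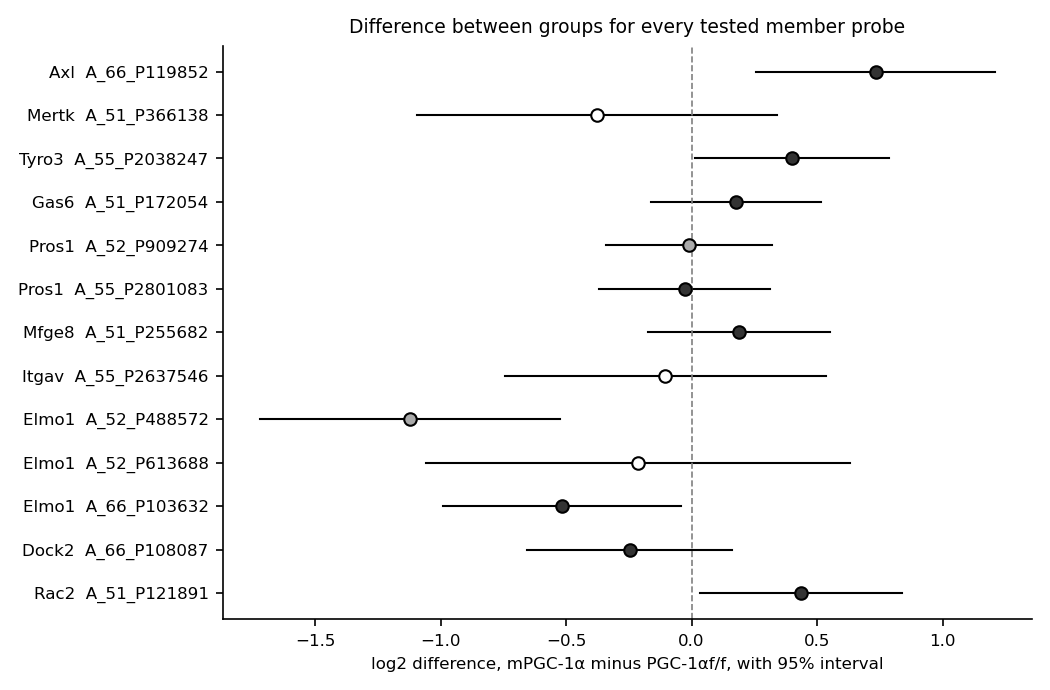
Log2 difference, mPGC-1α minus PGC-1αf/f, with its 95% interval for each of the 13 tested member probes. Dark points are the probes that stand for their gene, grey points other probes, and open points probes that lack a value on some array. The intervals of Axl, Tyro3, Rac2 and of Elmo1 with probes A_52_P488572 and A_66_P103632 leave out 0, and the other 8 intervals include it.

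Next, the bridging proteins were examined, and none of the 3 reached an unadjusted p of 0.05. Gas6, the ligand shared by all TAM receptors, gave 3.64, 3.51 and 3.47 across PGC-1αf/f replicates, against 3.67, 3.57 and 3.90 across mPGC-1α replicates. The groups overlapped, and the highest value was that of mPGC-1α replicate 3. The difference was 0.18 (95% interval -0.16 to 0.52), with a limma adjusted p of 0.541, and it was 0.08 without that array. Mfge8, which carries phosphatidylserine to αv integrins and is also made by astrocytes, gave 2.70, 2.27 and 2.50 against 2.76, 2.60 and 2.68. Its difference was 0.19 (95% interval -0.17 to 0.55), with an adjusted p of 0.543 by limma, and it was 0.30 without PGC-1αf/f replicate 1 and 0.08 without replicate 2. The 8 astrocyte markers, of which 7 were well above background on all arrays, had a summed level of 22.9, 22.8 and 16.2 times the 75th percentile across PGC-1αf/f replicates, against 30.9, 19.6 and 20.4 across mPGC-1α replicates. They were highest on mPGC-1α replicate 1, as was Mfge8, and 0 of the 7 tested passed an unadjusted p of 0.05. Their part in the Mfge8 values was not tested.

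Pros1 encodes protein S, a plasma anticoagulant that also acts as a ligand of Mertk and Tyro3. The probe that stood for it, A_55_P2801083, gave 3.99, 3.73 and 3.72 across PGC-1αf/f replicates, against 3.68, 3.75 and 3.92 across mPGC-1α replicates. The ranges coincided almost fully. The difference was -0.03 (95% interval -0.37 to 0.31), and the second probe, A_52_P909274, gave -0.01 (95% interval -0.34 to 0.32).

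Itgav, which pairs with β subunits to form the Mfge8 receptor, was left with 3 arrays after outlier spots were removed. They were 2.73 on PGC-1αf/f replicate 3, and 2.64 and 2.61 on mPGC-1α replicates 1 and 3. The difference of -0.10 had a 95% interval of -0.75 to 0.54 and rested on 1 PGC-1αf/f array. With all spots kept, the PGC-1αf/f arrays gave 2.92, 2.72 and 2.73 and the mPGC-1α arrays 2.64, 2.65 and 2.61. Each mPGC-1α value was then below each PGC-1αf/f value, by a difference of -0.16 (95% interval -0.46 to 0.14) with a limma adjusted p of 0.534.

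Of the engulfment signalling genes, Elmo1, the scaffold of the Rac exchange factor, was lower in mPGC-1α microglia at an unadjusted p under 0.05 with 2 of its 3 probes, to different extents. The probe that stood for the gene, A_66_P103632, gave -0.28, 0.11 and 0.06 across PGC-1αf/f replicates, against -0.77, -0.69 and -0.20 across mPGC-1α replicates. Only mPGC-1α replicate 3 reached into the PGC-1αf/f range. The difference was -0.52 (95% interval -0.99 to -0.04), or 1.43-fold lower, with an unadjusted p of 0.0365 and an adjusted p of 0.276 (limma). That unadjusted p stayed under 0.05 in 13 of 19 alternatives and in 2 of the 6 that left out an array. It was 0.0751 without PGC-1αf/f replicate 3, where the difference was -0.47. Another probe of the same transcript accession, A_52_P488572, gave -0.91, -1.31 and -0.40 against -2.09, -2.17 and -1.73. Here every mPGC-1α array was below every PGC-1αf/f array. The difference was -1.12 (95% interval -1.72 to -0.53), or 2.18-fold lower, with an adjusted p of 0.143 by limma, the smallest of any member probe.

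The third Elmo1 probe, A_52_P613688, is annotated to the other of the 2 accessions on the array. It lacked PGC-1αf/f replicates 1 and 2 for outlier spots and gave 2.54 on PGC-1αf/f replicate 3 against 2.55, 1.92 and 2.53 on the mPGC-1α arrays. The difference was -0.21 (95% interval -1.06 to 0.63), with a limma adjusted p of 0.765. With the 2 outlier spots kept, at 2.92 and 2.61, it was -0.36 (95% interval -0.87 to 0.14). The value of -0.21 rested on 1 PGC-1αf/f array, and it was -0.0042 without mPGC-1α replicate 2 and -0.017 with the replicate number as a block. Whether the probes differ from each other was not tested. The difference with A_52_P488572 ranged from -1.34 to -0.89 over 18 alternatives, with an unadjusted p under 0.05 in all 18. It was -0.89 without PGC-1αf/f replicate 3 and -1.26 without mPGC-1α replicate 3. It passed the adjusted threshold in 1 of the alternatives, array weights (adjusted p of 0.0499 by limma). That setting put 767 of all 25257 tested probes past the threshold, against 20 as reported. Within slide columns 1 and 2 the difference with A_52_P488572 was -1.18 and -0.86.

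**Figure D3:**
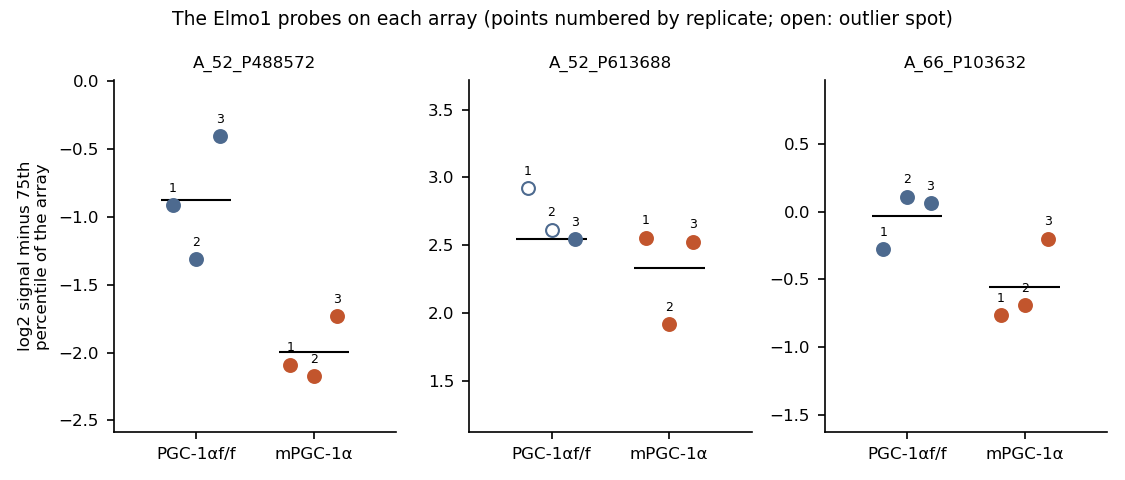
Level of the 3 Elmo1 probes on each array, as log2 signal minus the 75th percentile of the array, with points numbered by replicate, blue for PGC-1αf/f and orange for mPGC-1α. Black lines are group means without outlier spots, which are drawn open, and each panel spans the same range of log2 units. The groups separate with A_52_P488572 and overlap with the other probes.

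RefSeq lists 2 starts for Elmo1, 382483 bases apart, and their windows are printed because the Elmo1 probes carry 2 accessions and gave differences of unequal size. The Axl window is printed beside them as that of the member with the largest positive difference. Each window runs from 250 bases before to 50 after the start (GRCm38.p6, 5′ to 3′ on the gene's strand). Capitals mark 2 motifs on either strand, GGGCGG (GC box) and GAGGAA (a core bound by ETS factors such as PU.1), which did not overlap in these windows. Which start serves which accession was not determined.
Axl, chr7:25788684-25788983, minus strand: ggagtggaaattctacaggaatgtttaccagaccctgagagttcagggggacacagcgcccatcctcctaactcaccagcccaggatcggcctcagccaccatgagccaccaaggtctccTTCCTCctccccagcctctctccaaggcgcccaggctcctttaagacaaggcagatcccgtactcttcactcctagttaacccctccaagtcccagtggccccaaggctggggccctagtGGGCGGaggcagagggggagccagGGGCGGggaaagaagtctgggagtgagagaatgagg
Elmo1 upstream start, chr13:20090257-20090556, plus strand: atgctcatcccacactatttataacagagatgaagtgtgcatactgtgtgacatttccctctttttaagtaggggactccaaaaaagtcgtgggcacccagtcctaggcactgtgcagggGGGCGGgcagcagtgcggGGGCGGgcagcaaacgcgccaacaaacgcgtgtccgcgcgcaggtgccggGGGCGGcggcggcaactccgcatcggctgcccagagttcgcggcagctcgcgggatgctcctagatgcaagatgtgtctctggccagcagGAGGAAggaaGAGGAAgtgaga
Elmo1 downstream start, chr13:20472740-20473039, plus strand: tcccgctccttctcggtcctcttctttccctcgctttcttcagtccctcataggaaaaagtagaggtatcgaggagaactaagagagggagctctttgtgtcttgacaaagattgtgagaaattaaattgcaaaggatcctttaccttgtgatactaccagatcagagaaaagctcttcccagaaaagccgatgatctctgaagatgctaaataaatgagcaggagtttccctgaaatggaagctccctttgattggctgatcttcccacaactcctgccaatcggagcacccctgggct

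The upstream Elmo1 window held 3 GC boxes and 2 GAGGAA cores, the downstream window neither, and the Axl window 2 GC boxes and 1 GAGGAA core. Windows were listed for 9 of the 10 genes, 10 windows in all. The GC box was in 8 of the 10 windows and in 35.7% of all 32851 windows, and GAGGAA was in 5 of the 10 and in 28.3% of all. The element TNAAGGTCA, bound by estrogen-related receptors, which are known partners of PGC-1α, was in 0 of the 10 and in 1.28% of all. A match says only that these letters are in the window.

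Dock2, the exchange factor that partners ELMO1 in blood-derived and myeloid cells, gave 1.99, 1.98 and 2.04 across PGC-1αf/f replicates, against 1.47, 1.74 and 2.05 across mPGC-1α replicates with probe A_66_P108087. The PGC-1αf/f arrays were almost level, and mPGC-1α replicate 3 was as high as they were. The difference was -0.25 (95% interval -0.65 to 0.16), with a limma adjusted p of 0.481. It was -0.40 without mPGC-1α replicate 3, where the unadjusted p was 0.0383, and -0.11 without mPGC-1α replicate 1. The other Dock2 probe, A_66_P138212, was well above background on 1 array and was not tested.

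Rac2, the Rac GTPase of the blood cell lineages, ran the other way. It gave 2.53, 2.86 and 2.43 across PGC-1αf/f replicates, against 2.84, 3.15 and 3.14 across mPGC-1α replicates. PGC-1αf/f replicate 2 and mPGC-1α replicate 1 were at nearly the same level, and the lowest value was that of PGC-1αf/f replicate 3. The difference was 0.44 (95% interval 0.03 to 0.84) or 1.35-fold, with an unadjusted p of 0.0374 and an adjusted p of 0.277 (limma). It was 0.35 without PGC-1αf/f replicate 3 and 0.39 without mPGC-1α replicate 3, and neither reached an unadjusted p of 0.05.

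Markers of other cells were not level across the arrays on which Axl, Rac2 and Elmo1 differed. The summed level of the 10 blood leukocyte markers was 14.9 times the 75th percentile on PGC-1αf/f replicate 3, 68.5 and 70.0 on the other PGC-1αf/f arrays, and 73.7 to 90.4 on the mPGC-1α arrays. Of these markers, 8 were well above background on all arrays. With outlier spots kept, all 8 were higher in mPGC-1α samples, and 0 passed an unadjusted p of 0.05 (limma). The 8 border macrophage markers, all well above background, had a mean log2 level of 0.21 to 0.35 in PGC-1αf/f and 0.20 to 0.90 in mPGC-1α samples. They were highest on mPGC-1α replicate 3, where they summed to 18.0. Of the 8, 7 were higher and 1, Cd209f, was lower, at -0.62. Only Cd209f passed an unadjusted p of 0.05 (limma). The summed level of the oligodendrocyte markers was lower, at 16.1 to 19.5 in PGC-1αf/f and 11.5 to 13.8 in mPGC-1α samples. Of the 8, 7 were well above background on all arrays, and 1, Ermn, was higher, at 0.46. At an unadjusted p under 0.05, 4 of 8 were lower, where 5.71% of all genes were. None of the 8 passed the adjusted threshold (limma). One of the 4, Mog, was well above background on 3 of 3 PGC-1αf/f arrays and 0 of 3 mPGC-1α arrays, so it was tested only through the group in which it was higher, and 3 are left without it. The 10 microglial markers summed to 157 to 188 in PGC-1αf/f and 138 to 158 in mPGC-1α samples, and their mean log2 level was 3.80 to 3.98 and 3.55 to 3.76, with no overlap. With outlier spots kept, as in all these marker levels, the median difference of the 10 was -0.22 and 1 of them, Tmem119, was above 0, at 0.034. In the fit without outlier spots Tmem119 was at -0.016. Of the 10, 1 (Cx3cr1, whose locus carries the Cre) was lower at an unadjusted p under 0.05, where 5.71% of all genes were, and 0 passed the adjusted threshold (limma). Their part in the member values was not tested. Without PGC-1αf/f replicate 3, where leukocyte markers were low, the difference was 0.60 for Axl, 0.35 for Rac2, -0.47 for Elmo1 with A_66_P103632 and -0.89 with A_52_P488572. The unadjusted p was then over 0.05 for Rac2 and for A_66_P103632.

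**Figure D4:**
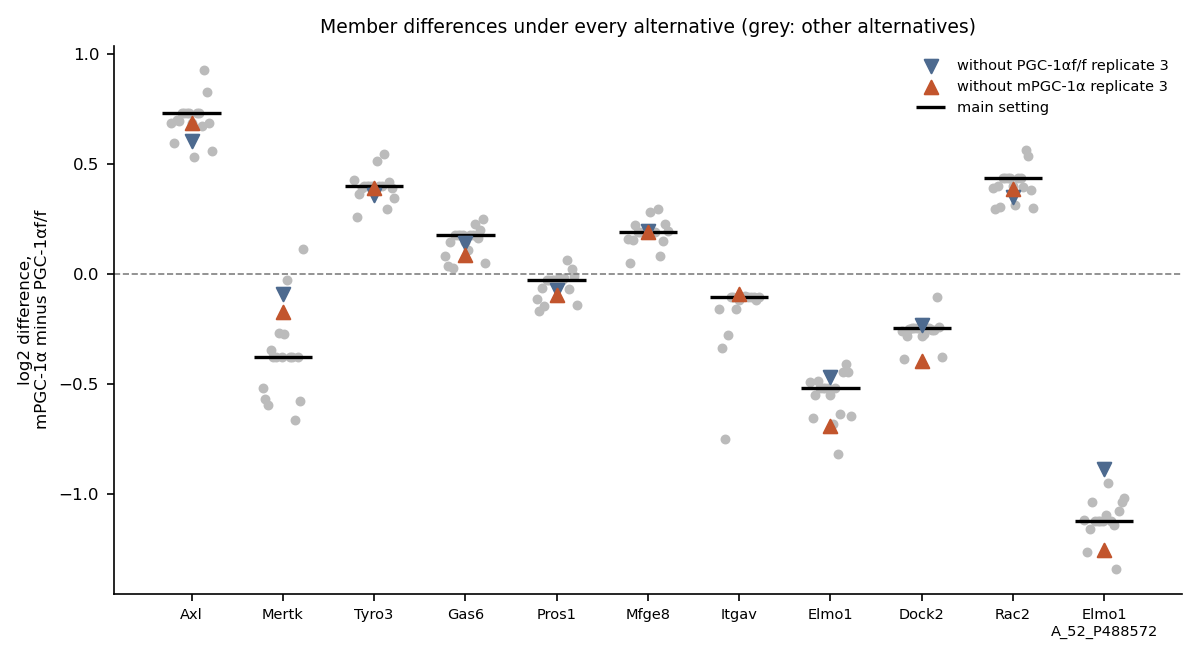
Log2 difference, mPGC-1α minus PGC-1αf/f, of each of the 10 genes and of Elmo1 probe A_52_P488572 under every setting that gave a value. Itgav had no value where PGC-1αf/f replicate 3 was left out. Black lines are the values given in the text, blue triangles leave out PGC-1αf/f replicate 3, orange triangles leave out mPGC-1α replicate 3, and grey points are the other alternatives. Axl, Tyro3, Gas6, Mfge8 and Rac2 stay above 0, Itgav, Elmo1 and Dock2 stay below it, and Mertk and Pros1 lie on both sides.

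To place the members among the genes they act with, 6 lists of 80 pathway genes were examined, of which 65 had a probe with values on all arrays. In the same fit 0 of the 65 passed the adjusted threshold, an unadjusted p under 0.05 was reached by 9 that were higher (13.8%, against 8.16% of all genes) and 4 that were lower (6.15%, against 5.71%), and the median difference was 0.04. That split moved with the scaling. It was 3 higher and 8 lower with the median shift, 5 and 5 with quantile normalization, and 7 and 0 on the series table. With array weights it was 9 and 9. The background moved as well. By the same threshold, 1901 of all 25257 tested probes were higher and 2325 were lower as reported, against 1117 and 3943 with the median shift. The counts were 1672 and 2667 with quantile normalization, 1247 and 513 on the series table, and 2739 and 3056 with array weights. In the list of TAM signalling and processing, 2 of 13 were higher and 0 lower, beside 8.16% and 5.71% of all genes, with a median of 0.10. Socs3, a feedback inhibitor of cytokine signalling that TAM receptors are known to induce, gave 1.66, 2.62 and 2.44 against 2.80, 3.39 and 3.35, a difference of 0.94. It was 0.85 without mPGC-1α replicate 3, with an unadjusted p of 0.0532. Nr1h3, the LXRα receptor that senses lipid from engulfed cells, was 0.86 higher, and 0.49 higher without PGC-1αf/f replicate 3. Without mPGC-1α replicate 3 it was 0.72, with an unadjusted p of 0.109. Its second probe gave 0.44. Lgals3, reported as a further TAM ligand, gave 2.64, 2.89 and 1.06 against 3.02, 3.24 and 3.40. Its difference of 1.02 was 0.45 without PGC-1αf/f replicate 3, and a second probe gave 1.36. Adam10 and Adam17, the proteases that shed Axl and Mertk from the cell surface, differed by -0.09 and -0.32 with groups that overlapped.

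Among other receptors and bridging proteins for apoptotic cells, 4 of 19 were higher at an unadjusted p under 0.05 and 0 were lower (8.16% and 5.71% of all genes), with a median of 0.10. Among the probes that stood for their genes, the largest difference was that of Cd300lf, a phosphatidylserine receptor of myeloid cells. It gave -0.34, 0.43 and -1.30 across PGC-1αf/f replicates, against 1.65, 1.56 and 1.76 across mPGC-1α replicates. The groups were well apart, and the difference was 2.06 (95% interval 1.12 to 3.01), with an adjusted p of 0.119 by limma. Without PGC-1αf/f replicate 3 it was 1.62. The other Cd300lf probe was well above background on only 1 of 3 PGC-1αf/f arrays, and its value is not given. The probe that stood for Anxa1 gave 1.66 with groups that overlapped, and 0.50 without PGC-1αf/f replicate 3. A probe of Anxa1 that did not stand for its gene gave 2.10, with PGC-1αf/f replicate 3 far below the rest. Neither Anxa1 probe passed an unadjusted p of 0.05. Thbs1, a matricellular bridge between apoptotic cells and phagocytes, was 0.75 higher, although a second probe without values on all arrays gave -0.01. It was 0.44 without mPGC-1α replicate 3, where its unadjusted p was 0.0502. Anxa5, which binds phosphatidylserine, was 0.62 higher, and 0.37 without PGC-1αf/f replicate 3 and 0.69 without mPGC-1α replicate 3, with unadjusted p of 0.0510 and 0.0508. Scarf1, a scavenger receptor, made up the fourth, at 0.63. It was well above background on 2 of 3 PGC-1αf/f arrays and 3 of 3 mPGC-1α arrays, and was not tested under the filter requiring all 6 arrays, which leaves 3. It was 0.42 without PGC-1αf/f replicate 3 and 0.44 without mPGC-1α replicate 3, with unadjusted p of 0.110 and 0.143. Trem2 and the C1q chains, constitutive in microglia, differed by -0.03 to 0.09.

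**Figure D5:**
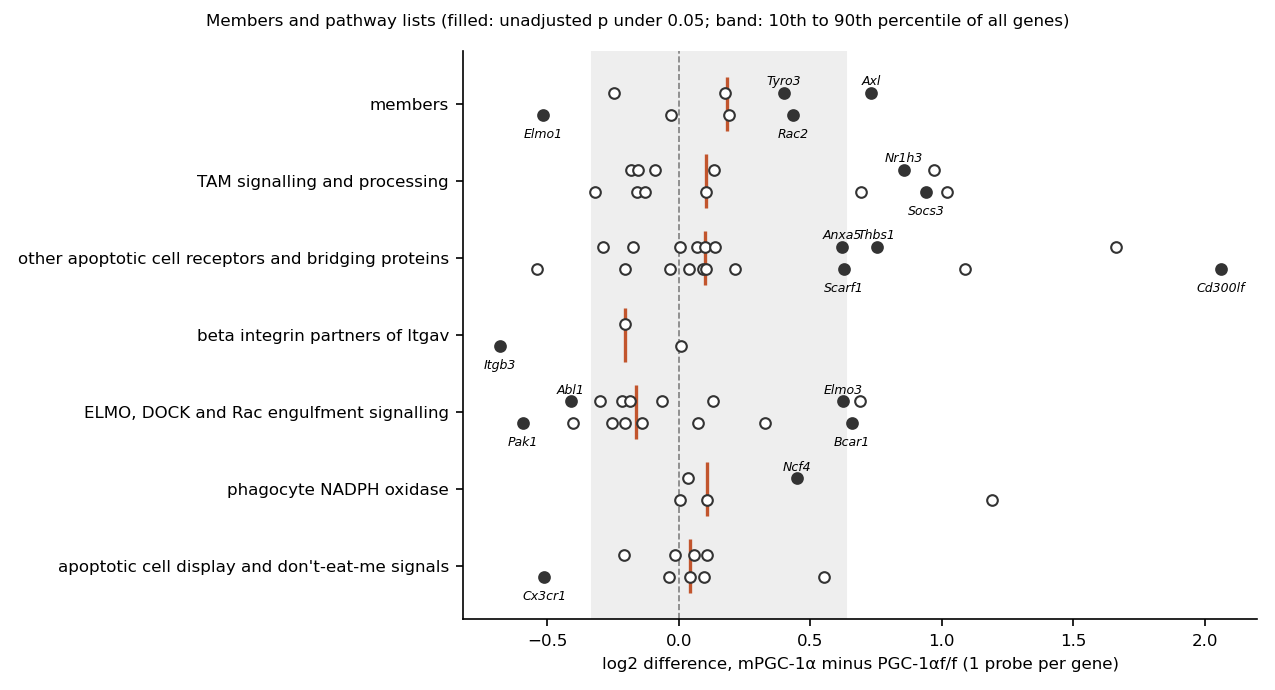
Log2 difference, mPGC-1α minus PGC-1αf/f, for the 8 members and the 65 pathway genes with values on all arrays, 1 point per gene. Filled points had an unadjusted p under 0.05 and are named, orange lines are list medians, and the grey band runs from the 10th to the 90th percentile of all genes (-0.33 to 0.64). Cd300lf, at 2.06, is the farthest point from 0 among these probes, and the median of each list lies inside the band.

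The β subunits that pair with Itgav were led by Itgb3, the integrin β3 chain of the Mfge8 receptor. It gave 1.72, 1.47 and 1.49 across PGC-1αf/f replicates, against 1.04, 0.88 and 0.72 across mPGC-1α replicates, so all mPGC-1α arrays were lower. The difference was -0.68 (95% interval -1.03 to -0.33), with a limma adjusted p of 0.135, and -0.72 without PGC-1αf/f replicate 3. Itgb5, the other subunit known to act with Mfge8, differed by 0.01 (95% interval -0.32 to 0.34), and Itgb1 by -0.21. In the list of ELMO, DOCK and Rac signalling, 2 of 16 were higher (Elmo3 and Bcar1) and 2 lower (Abl1 and Pak1), where 8.16% and 5.71% of all genes were, with a median of -0.16. Elmo3 and Bcar1, at 0.63 and 0.66, were 0.41 and 0.39 without PGC-1αf/f replicate 3, with unadjusted p of 0.106 for both. Pak1, a kinase activated by Rac, gave -0.73, -0.65 and -0.75 against -1.34, -1.36 and -1.20. The groups did not overlap, and the difference was -0.59 (95% interval -0.88 to -0.30) with a limma adjusted p of 0.130. Abl1 was 0.41 lower on the log2 scale with 1 probe, and a second gave -0.31. Arhgdib was 0.33 higher with groups that did not overlap, but did not pass an unadjusted p of 0.05, and its second probe gave 0.08.

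In the phagocyte NADPH oxidase, the Rac2-dependent enzyme of the phagosome, Ncf4 was higher by 0.45, 1 of 5 against 8.16% of all genes, and the other 4 subunits differed by 0.01 to 1.19. Ncf4 was 0.47 without PGC-1αf/f replicate 3 and 0.36 without mPGC-1α replicate 3, with unadjusted p of 0.0563 and 0.117. The value of 1.19, for Cybb, was 0.44 without PGC-1αf/f replicate 3. Among genes for apoptotic cell display and signals against engulfment, 1 of 9 was lower and 0 higher, against 5.71% and 8.16% of all genes. That gene was Cx3cr1, at -0.51 and -0.85 with its 2 probes, whose locus holds the Cre insertion in mPGC-1α mice. Cd47, Sirpa and Calr differed by 0.11, 0.04 and 0.10.

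Finally, the genes most like the TAM receptors were named by the smallest root mean square difference over the 6 arrays after each gene's own mean was subtracted, among 11565 genes. For Axl they were the chemokine gene Ccl12 (0.0902), the semaphorin receptor gene Plxnd1 (0.0905) and the actin-binding protein gene Tagln2 (0.0958), beside an SD of 0.43 of Axl itself. Ccl12 gave 2.19, 2.91 and 2.32 against 3.04, 3.34 and 3.41. As for Axl, PGC-1αf/f replicate 2 was the highest of its group. For Tyro3 they were Vasn (0.0583), Cox8a (0.0631) and Cldn12 (0.0708), with an SD of 0.25 of Tyro3. Mertk had no value on all 6 arrays and was not compared. These likenesses describe 6 arrays and carry no test.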

How the data were processed

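Microglia were measured in 6 samples, 3 per group, on 1-colour Agilent mouse arrays labelled with Cy5. The deposited scanner files hold the intensity of each spot, which the authors' scanner software had corrected for background and spatial trends, with flags for outlier spots and spots well above background. The deposited series table held the same intensity without normalization between arrays. GeneSpring normalization is named by the methods, with no test per gene. Groups came from the labels.

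Control and outlier spots were left out, and the 75th percentile of an array (1012 to 2138 intensity units) was subtracted from its log2 intensities. A probe was tested where every array of a group had it well above background, with limma 3.58.1 in R 4.3.3 (two-sided, Benjamini-Hochberg over 25257 probes, threshold 0.05), which was checked on simulated data. The brightest tested probe with a value on all 6 arrays stood for a gene. Accessions were matched to RefSeq symbols of GRCm38.p6, used for names and promoter windows, and 33767 of 56605 probes had 1 symbol. No saturated spot was found. The number of arrays limits precision. The labels do not say that replicates came from separate mice, so p-values measure only the spread between these samples, which may be technical.

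All members were named with every probe. From each pathway list, up to 3 genes were named by the largest difference. They were taken from those well above background on all arrays with groups that did not overlap. For genes named in this way, the lack of overlap follows from the rule. Other pathway genes, including those given at small differences, were chosen after their values were seen. The members, the lists and these rules were chosen with earlier results of these data known. Alternatives covered normalization, background correction, the filter, outlier spots, blocks, array weights, the variance model, probe averaging and leaving out arrays. Leaving out both replicates 3 was chosen after seeing the data. Figures used matplotlib 3.10.9.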

Additional observations from a re-analysis of the deposited data

How the results depend on the processing

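No member passed an adjusted p of 0.05 in any of the 19 alternatives (limma). Of the 4 members at an unadjusted p under 0.05, the count was 2 with a median shift, 0 on the series table without normalization, 1 without the filter on dim probes, and 1, Elmo1, without both replicates 3. On the series table, members with a value on every array shared a standard error of 0.4281. Leaving out 1 array gave 1 to 3 members, with Axl alone left when PGC-1αf/f replicate 3 or mPGC-1α replicate 2 was removed. The pathway count of 13 (9 higher, 4 lower) was 11 (3 and 8) with a median shift, 10 (5 and 5) with quantile normalization, 18 (9 and 9) with array weights, 7 (7 and 0) on the series table and 4 to 13 when 1 array was left out, with 4 where mPGC-1α replicate 2 was left out and 9 where PGC-1αf/f replicate 3 was. The number of all tested probes called moved with these settings too. The median shift moved the median of all probes to -0.14, and Axl was then 0.59. With the replicate number as a block, 3 members (Axl, Elmo1 and Rac2) and 14 pathway genes reached an unadjusted p under 0.05. Deviations of same-numbered arrays correlated at 0.139, 0.127 and 0.0187, and were treated as unpaired. Pros1 ranged from -0.096 to 0.062 when 1 array was left out, turning to 0.062 without PGC-1αf/f replicate 1 and to 0.024 without mPGC-1α replicate 1, within its interval, and Mertk ranged from -0.66 to -0.09 and turned to 0.11 without both replicates 3, where 1 array of each group was left and no test was possible. The Elmo1 probe A_52_P488572, at -0.95 with array weights, passed there alone (adjusted p of 0.0499 by limma). With array weights 767 of all 25257 tested probes passed, against 20 as reported. The causes were not tested. Averaging the probes of a gene gave no value for Mertk and Itgav.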
